A study of Homo sapiens with 3 samples.

Results

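BCL6 and 3 related genes, BCL6B, BCOR and BCORL1, were examined in peak lists of acetylated lysine 27 of histone H3 (H3K27ac), which marks promoters and enhancers in use. They are 4 of 19974 protein-coding genes on chromosomes 1 to 22 and X. BCL6 was chosen by the fold and −log10 q of a peak at its end that the treated list lacked and the control list held, and the others were chosen as its relative and its co-repressors. The presence and strength of that peak are therefore a description and support nothing further. The −log10 q of a peak is larger the smaller the authors' false discovery estimate for it. The data were CUT&Tag libraries, in which a transposase is tethered to antibody-bound chromatin and tags the DNA beside it.

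There were 3 libraries from A2780, a human ovary carcinoma cell line grown in DMEM with serum, with 1 library per group. The BPP library was H3K27ac in cells treated with the BPP peptide, described in the series design as a competitor for the site where BIN2 is phosphorylated. The CTR library was H3K27ac in control cells, whose treatment the sources used here do not give. The IgG library measured background with an antibody of no specificity for the mark. Without replicate libraries no p-value was computed for any difference. The lists held 17841 BPP, 14836 CTR and 7701 IgG peaks, depth was unknown, and a peak absent from a list may lie just under its caller's threshold.

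BCL6 encodes a repressor with a BTB domain and zinc fingers, best known from germinal-centre B cells and from lymphomas, where it is an oncogene. It silences its targets by recruiting co-repressors through the BTB domain, among them NCOR1 and BCOR. BCL6B encodes a close relative with the same plan. BCOR encodes the BCL6 co-repressor and is also part of a variant Polycomb complex that modifies histone H2A, and BCORL1 encodes its paralogue, a co-repressor that binds CtBP. H3K27ac at a promoter usually accompanies transcription of the gene, and RNA was not analysed here.

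The sequence under the peak at BCL6 is shown first because that peak was the ground for choosing the gene. It is the 250 bases before the BCL6 transcription start (RefSeq, GRCh38.p14, chr3:187745469-187745718, minus strand), with the 225 bases that lie in the CTR peak in capitals.
BCL6 upstream: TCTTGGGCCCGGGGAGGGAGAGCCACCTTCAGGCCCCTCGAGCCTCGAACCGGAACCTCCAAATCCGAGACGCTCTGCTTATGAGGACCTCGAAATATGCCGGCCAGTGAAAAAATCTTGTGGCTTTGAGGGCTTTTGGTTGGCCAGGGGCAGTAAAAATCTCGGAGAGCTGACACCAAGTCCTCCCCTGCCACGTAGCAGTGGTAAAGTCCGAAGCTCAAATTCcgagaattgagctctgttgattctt

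BCL6 (chr3:187721377-187745468, minus strand) had 1 H3K27ac peak in BPP and 1 in CTR within its span or 100 kb of it, and the peaks were at different places. In BPP no peak lay within 1 kb of either gene end. The BPP peak nearest to the transcription start was 6.19 kb away, inside the gene (chr3:187738533-187739278). The authors' fold of this peak, a ratio over a background that the sources do not describe, was 4.13, with −log10 q at 6.62. The CTR peak (chr3:187745494-187745842) began 0.026 kb beyond the transcription start, with its summit 180 bp upstream of that start. Its fold was 13.01, with −log10 q at 89.7. IgG had no peak here, and its nearest lay 842.7 kb from the start. The CTR peak also lies wholly inside BCL6-AS1, an antisense lncRNA gene (chr3:187743669-187746026, plus strand) whose own start is 1.83 kb from it, and CUT&Tag cannot assign the mark to either gene.

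By −log10 q the BPP peak inside BCL6 ranked 9901 of 17841 in its list, whereas the CTR peak at the start ranked 123 of 14836. Of the 123 CTR peaks with as high a −log10 q, 2 had no BPP peak within 1 kb. Besides the BCL6 peak this was a peak on chromosome X away from any gene end (chrX:115736819-115737311, fold 6.01). The high rank of the BCL6 peak and its place among these 2 follow from the choice of the gene, and nothing is read from them. An IgG peak lay within 1 kb of 56 of the 123, and BCL6 was not among these. The BCL6 peak was narrow for its strength. It was 349 bp wide against a median of 926 bp for the 123, and 9 of them, itself included, were as narrow or narrower.

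The BPP peak inside BCL6 was closest to the second BCL6 start of the RefSeq table, which lies at position 187736501. Its summit was 2441 bp upstream of that start, and its near edge was 2.03 kb away. No CTR or IgG peak lay within 1 kb of the BPP peak, and the gap to the CTR peak was 6.22 kb. The lists thus held peaks at different parts of the gene. A peak of both lists was next found only outside the 100 kb flanks. At LPP, 407.3 kb above BCL6, the BPP peak had a fold of 3.73 and overlapped a CTR peak of fold 3.51. At RPL39L, 581.6 kb below BCL6, the BPP peak had a fold of 5.50 and overlapped a CTR peak of fold 6.14. The other coding genes in the flanks, SST, which encodes somatostatin, and RTP2, had no peak in any list.

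**Figure D1:**
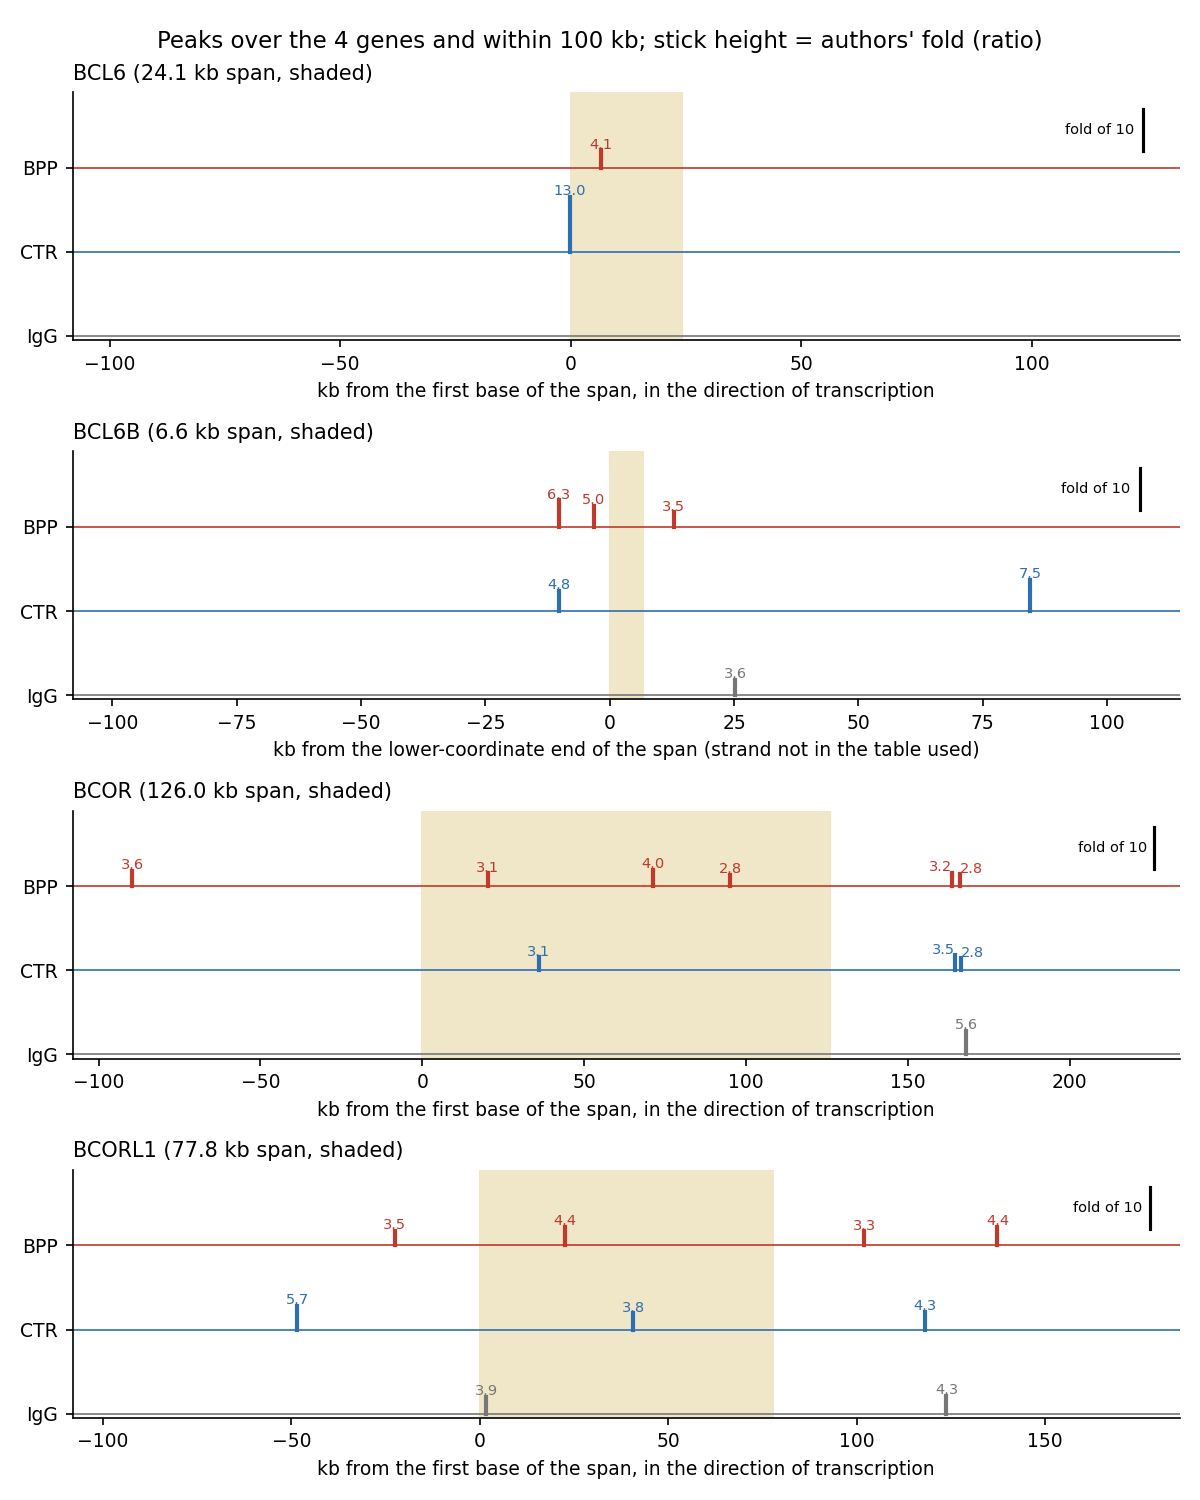
Peaks over BCL6, BCL6B, BCOR and BCORL1 and within 100 kb, against distance in kb from the start of the gene span (for BCL6B, from its lower-coordinate end). Each stick is 1 peak, its height the authors' fold, with lanes for BPP, CTR and IgG, and the gene span is shaded. No BPP stick stands at the first or last base of any of the 4 genes, and the CTR peak of fold 13.01 at the BCL6 start is the tallest stick.

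Among all protein-coding genes, 30.6% had a peak within 1 kb of a gene end in BPP, 31.2% in CTR and 2.13% in IgG. A gene-end peak was found in BPP only for 7.03% of genes, in CTR only for 7.57%, in both for 23.6% and in neither for 61.8%. Against this background, 0 of the 4 genes had a gene-end peak in BPP, 1 (BCL6) in CTR and 0 in IgG. The BCL6 count was fixed by the choice of the gene and nothing is read from it. BCL6B, BCOR and BCORL1 fell in the most common class, with no H3K27ac peak at either end in either list.

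Genes whose pattern was most like that of BCL6 were taken as those with no gene-end peak in BPP or IgG and at least 1 in CTR, ordered by how near their CTR fold was to 13.01 over the 3 libraries. There were 1461 such genes, BCL6 included, and no other reached its fold. The nearest were ZNF10 and ZNF891, which share 1 peak of fold 10.3 and −log10 q 19.6. FSIP1 followed with a fold of 10.1, GUF1, which encodes a mitochondrial translation GTPase, with 9.97 and TTLL7, which encodes a tubulin glutamylase, with 9.70. The median of the group was a fold of 4.78 with −log10 q at 7.04, so the BCL6 peak stood apart in both values, as its choice requires.

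**Figure D2:**
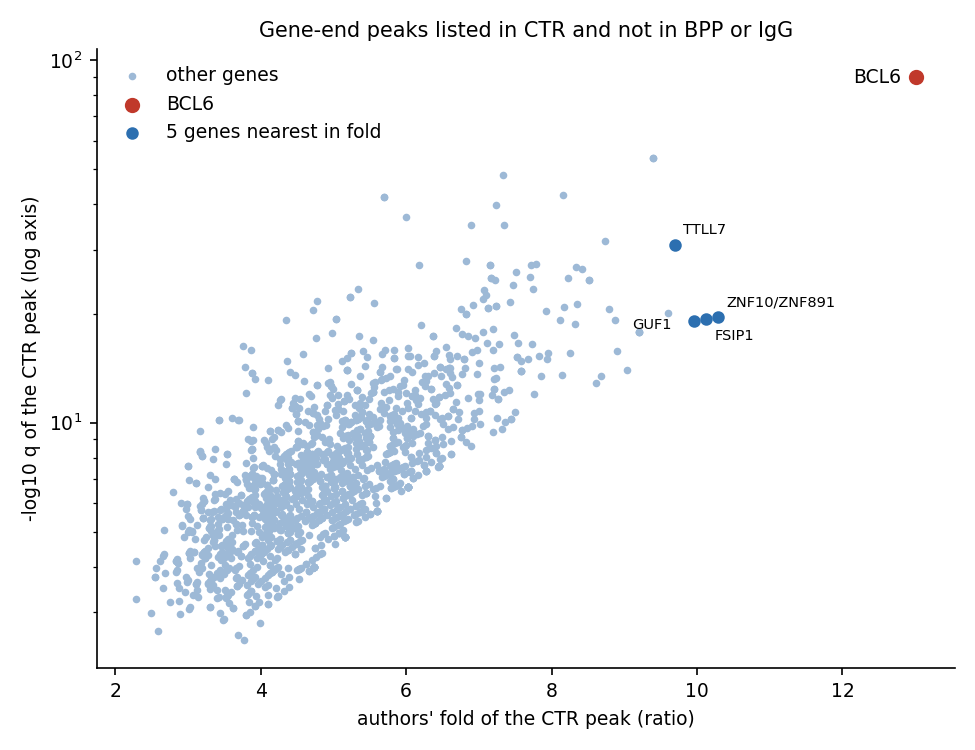
Gene-end peaks listed in CTR and not in BPP or IgG, with the authors' fold on the x axis and −log10 q on a logarithmic y axis. Each point is the peak of highest fold of a gene. BCL6 lies at the upper right with a fold of 13.01 with −log10 q at 89.7, beyond the 5 genes nearest in fold (9.70 to 10.3).

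BCL6B (chr17:7023050-7029644) had no peak over its span in any list, and its surroundings held peaks of neighbouring genes. Among coding genes whose span is within 1.5 times that of BCL6B, 29.4% had a BPP peak over the span, 25.4% a CTR peak and 3.11% an IgG peak. The nearest BPP peak (chr17:7019614-7020096, fold 5.02, −log10 q 21.6) lay 2.95 kb below BCL6B, at the start of MIR497HG, the host gene of the microRNAs MIR497 and MIR195. CTR had no peak there, and its nearest to BCL6B was 9.66 kb away. A further BPP peak without a CTR or IgG counterpart lay 6.01 kb above BCL6B (fold 3.47, −log10 q 4.64). It spanned the lower-coordinate end of SLC16A13, a monocarboxylate transporter gene. At RNASEK, which encodes a ribonuclease and subunit of the vacuolar ATPase, both lists held a peak, with a fold of 6.31 in BPP (chr17:7012331-7013325, −log10 q 38.8) and 4.85 in CTR (chr17:7012361-7013389, −log10 q 17.5). A CTR peak inside ASGR2, an asialoglycoprotein receptor gene (fold 7.46, −log10 q 12.8), was 77.7 kb away and had no BPP counterpart. IgG had 1 peak, 18.3 kb above BCL6B, with a fold of 3.58.

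The MIR497HG start is shown because, of the peaks near BCL6B, it is the strongest that BPP held and CTR did not. All 250 bases before the start (RefSeq, GRCh38.p14, chr17:7019655-7019904, minus strand) lie in the BPP peak and are in capitals. The summit was 196 bp upstream of the start. The nearest CTR peak was 6.27 kb from it.
MIR497HG upstream: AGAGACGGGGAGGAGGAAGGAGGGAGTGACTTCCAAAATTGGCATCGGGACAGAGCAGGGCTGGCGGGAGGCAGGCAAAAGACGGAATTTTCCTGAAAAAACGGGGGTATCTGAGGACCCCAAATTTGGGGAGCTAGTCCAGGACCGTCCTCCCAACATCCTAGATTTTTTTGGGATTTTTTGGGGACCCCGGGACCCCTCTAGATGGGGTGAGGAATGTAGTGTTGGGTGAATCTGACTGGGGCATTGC

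BCOR (chrX:40051246-40177277, minus strand) had 3 BPP peaks and 1 CTR peak inside the gene and none in IgG. Over all coding genes, 40.4% had a BPP peak over the span, 38.5% a CTR peak and 13.9% an IgG peak, and for genes within 1.5 times the span of BCOR the shares were 53.3% in BPP, 53.3% in CTR and 28.5% in IgG. The strongest BPP peak inside BCOR (chrX:40105746-40106144) had a fold of 3.96 with −log10 q at 9.23 and touched an end of the lncRNA gene LOC107985687. The others had folds of 3.06 (chrX:40156773-40157284) and 2.75 (chrX:40082006-40082321). The CTR peak (chrX:40141068-40141440) had a fold of 3.08 with −log10 q at 2.88, which ranked 14730 of 14836. The BPP peak nearest to the second RefSeq start of BCOR lay 10.1 kb upstream of it, and this CTR peak 5.19 kb downstream of it. No peak of one H3K27ac list inside BCOR overlapped a peak of the other, the smallest gap being 15.3 kb.

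Outside BCOR, a cluster of weak peaks lay 37.4 to 41.8 kb below the gene around LINC03053. It held 2 BPP peaks with folds of 2.79 and 3.15, 2 CTR peaks with folds of 2.82 and 3.53, and an IgG peak of fold 5.59. The BPP peak of fold 2.79 (chrX:40010852-40011277) overlapped the CTR peak of fold 2.82 (chrX:40010461-40011105). The other BPP and CTR peaks were 0.212 kb apart. The IgG peak was within 1 kb of a CTR peak, and whether background contributed to the H3K27ac peaks there was not tested. A last BPP peak of fold 3.65 lay 89.4 kb above BCOR, upstream of its start, without a CTR or IgG counterpart.

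BCORL1 (chrX:129980313-130058071, plus strand) had 1 peak of each list inside the gene, and no 2 of them overlapped. The BPP peak (chrX:130002755-130003264) had a fold of 4.44 with −log10 q at 4.86. The CTR peak (chrX:130020883-130021209) had a fold of 3.82 with −log10 q at 3.36, and lay 17.6 kb from the BPP peak. Nearest to the start was the IgG peak (chrX:129981821-129982206, fold 3.95, −log10 q 2.20), 0.842 kb from the RefSeq start at 129980979. It lay 1.51 kb from the lower-coordinate end of the annotated span. The nearest H3K27ac peaks to that start were 21.8 kb away in BPP and 39.9 kb away in CTR.

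The peaks around BCORL1 were likewise unshared. BPP had peaks 22.4 kb below the gene (fold 3.49), inside ELF4, an ETS transcription factor gene, 24.1 kb above it (fold 3.32) and inside RAB33A, a small GTPase gene, 59.4 kb above it (fold 4.35). CTR had a peak over LOC105373335, 48.2 kb below the gene (fold 5.68), and another inside ELF4, 40.1 kb above it (fold 4.28). A second IgG peak also lay inside ELF4 (fold 4.29). The first pair of overlapping H3K27ac peaks above BCORL1 was at AIFM1, a mitochondrial flavoprotein gene, just outside the flank at 107.6 kb for the BPP peak, where the fold was 5.85 in BPP and 5.67 in CTR.

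Taken over the 4 genes, 14 BPP, 9 CTR and 4 IgG peaks lay over the spans or within 100 kb. The peaks per gene in BPP were 1 for BCL6, 3 for BCL6B, 6 for BCOR and 4 for BCORL1, against a median of 3 over all coding genes. CTR had 1, 2, 3 and 3 peaks for the same genes, with a median of 2, and IgG had 0, 1, 1 and 2, with a median of 1. For BCL6, 36.8% of coding genes had as few BPP peaks or fewer and 39.3% as few CTR peaks or fewer. For BCOR, which has a long span, 75.1% of coding genes had fewer BPP peaks and 54.9% had fewer CTR peaks.

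Few of these peaks were called in both conditions. Of the 14 BPP peaks, 2 overlapped a CTR peak (14.3%, 95% Wilson interval 4.01 to 39.9), against 50.04% of the whole BPP list. Of the 9 CTR peaks, 2 had an overlapping one in BPP, but the lack of a counterpart for the peak at the BCL6 start was fixed by the choice of the gene. Without that peak, chosen for leaving out after the data were seen, a counterpart in BPP was found for 2 of the other 8 (95% Wilson interval 7.15 to 59.1%), against 59.6% over the whole CTR list. In BPP, −log10 q was below the list's median for 10 of the 14 peaks, and in CTR for 5 of the 9, which is near an even split. Among all peaks at or below the median −log10 q of the 14 BPP and the 8 CTR peaks, 22.3% of the BPP list and 39.5% of the CTR list were overlapped. Both values lie within the intervals given, which are wide. Some of the 14 and of the 8 peaks lie above those medians, so the comparison is not one of like strength. Whether peak strength accounts for the low sharing was not tested. None of the 14 BPP peaks overlapped an IgG peak, which allows a share of up to 21.4%. None of the 9 CTR peaks did, which allows up to 33.3%. Each limit is 3 divided by the number of peaks and is not a Wilson limit. Over the whole lists only 1.82% of BPP and 2.32% of CTR peaks overlapped an IgG peak, so these zeros do not set the 4 genes apart. The intervals and limits cover counting error only.

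Promoter composition differed among the genes and between the starts of 1 gene. Over 34961 RefSeq windows of 300 bases, from 250 before to 50 after a start, the median GC content was 58.7% and the median ratio of observed to expected CpG was 0.580. The first BCL6 window had a GC content of 53.0% and a ratio of 0.573, and the second 50.3% and 0.385. For BCOR the first window had 53.0% and 0.333 and the second 69.3% and 0.824. The BCORL1 windows had 77.7% and 0.989 at the first start and 82.7% and 0.942 at the second, and the GC content of the first was higher than in 94.6% of windows. No window of BCL6B was analysed here.

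The presence of peaks was then read beside this composition. Over all 15812 coding genes with a window, 32.3% had a peak within 1 kb of a start in BPP, 33.9% in CTR and 1.61% in IgG. With CpG-rich defined as a GC content of at least 55% and a ratio of at least 0.6, 41.0% of 10312 coding genes with such a window had a BPP peak within 1 kb of a start and 44.3% a CTR peak. Of 5500 genes with no such window, 16.1% had a BPP peak and 14.5% a CTR peak, and 2.78% had a peak in CTR only. BCOR and BCORL1 had a CpG-rich window and no H3K27ac peak within 1 kb of a start in either list, as had 48.1% of such genes. BCL6 had no CpG-rich window, both values at its first start falling short of the limits, and had the CTR peak there. That peak was the ground for choosing BCL6, so the share of 2.78% does not measure how unusual it is.

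**Figure D3:**
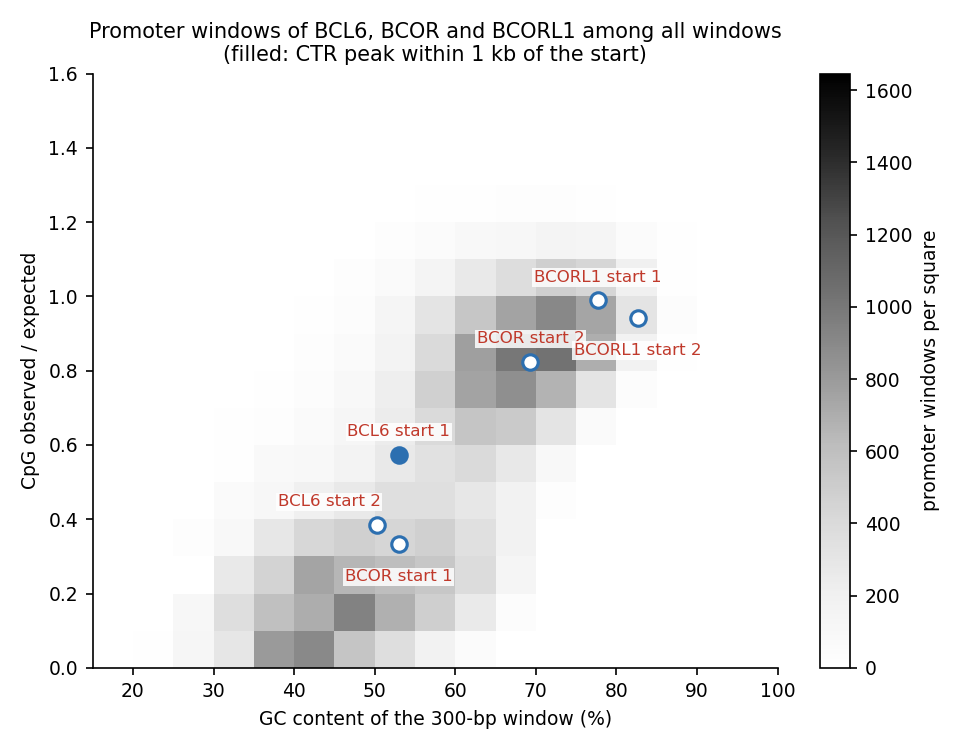
GC content (x axis, %) and observed over expected CpG (y axis) of 300-base windows at transcription starts, with all 34961 windows as grey squares shaded by their number. Circles are the windows of BCL6, BCOR and BCORL1, numbered along the direction of transcription and filled where a CTR peak lay within 1 kb of the start. The filled circle, BCL6 start 1, has 53.0% GC, below both BCORL1 windows and the second BCOR window.

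The windows of BCOR and BCORL1 that met the CpG-rich limits were the second of BCOR and both of BCORL1, and the upstream sequences of 2 of these 3 are given beside that of BCL6. Both have RefSeq coordinates on GRCh38.p14, chrX:40146634-40146883 on the minus strand for the second BCOR start and chrX:129980729-129980978 on the plus strand for the first BCORL1 start. Capitals mark the GC box GGGCGG, searched on both strands, of which this BCOR sequence has 2 and this BCORL1 sequence has 4, a pair of them overlapping by 1 base. The second BCORL1 window, not shown, has 5.
BCOR upstream: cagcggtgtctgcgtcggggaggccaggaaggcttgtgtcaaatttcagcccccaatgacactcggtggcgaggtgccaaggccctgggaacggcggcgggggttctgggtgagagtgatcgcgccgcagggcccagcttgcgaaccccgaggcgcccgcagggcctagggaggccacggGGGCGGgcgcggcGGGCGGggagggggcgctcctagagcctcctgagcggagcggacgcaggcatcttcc
BCORL1 upstream: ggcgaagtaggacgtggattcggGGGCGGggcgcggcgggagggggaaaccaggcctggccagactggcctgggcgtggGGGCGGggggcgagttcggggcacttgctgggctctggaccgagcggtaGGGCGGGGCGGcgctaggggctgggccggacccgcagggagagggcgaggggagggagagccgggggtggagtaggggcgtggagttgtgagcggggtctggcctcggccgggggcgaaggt

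The GC box was found in 45.0% of all windows, in neither BCL6 window and not in the first BCOR window. The first BCL6 window held the letters of the BCL6 motif, TTCCTNGAA, once, a match found in 1.55% of windows. It lies on the strand opposite to the gene and begins at position 37, with the start counted as 1, outside the CTR peak. In the strand of the gene (chr3:187745419-187745447) the site is in capitals.
BCL6 site: ggtgatgcaagaagtTTCTAGGAAaggcc

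The broader motif TTCNNNGAA, which STAT factors bind and which includes the site above, occurred 4 times in the same window, and 7.66% of all windows held it at least once. The matches began 28 and 5 bases before the start and at positions 11 and 37, and only the first reached into the CTR peak. Every motif was searched on both strands of the windows of BCL6, BCOR and BCORL1. The AP-1 motif TGANTCA was found once, at the second BCL6 start, and in 7.68% of windows. The E-box CACGTG was found once, at the first BCOR start, and in 7.27% of windows. CCAAT was found at the second BCOR start and in 34.6% of windows. These matches describe letters and are not evidence of binding.

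The genes around BCL6 and BCOR were then counted by gene-end peak, read against the shares of 7.03% in BPP only, 7.57% in CTR only and 23.6% in both over all coding genes. Of 8 partners of BCOR in its Polycomb complex, 0 were marked in BPP only, 1 in CTR only and 2 in both. The CTR-only gene was YAF2, which links the complex to its ubiquitin ligases (fold 6.55, −log10 q 12.8). PCGF1, the Polycomb subunit that binds BCOR directly, had overlapping peaks with a fold of 4.28 in BPP and 4.07 in CTR. SKP1, an adaptor, had folds of 6.91 in BPP and 7.69 in CTR. KDM2B, RING1, RNF2, RYBP and USP7 had no H3K27ac gene-end peak, and neither had BCOR and BCORL1 themselves.

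Of 15 other co-repressor partners, 4 were marked in BPP only, 1 in CTR only and 6 in both. The BPP-only genes included HDAC5, a class II deacetylase (fold 6.35, −log10 q 16.5), CHD4, a remodeller of the NuRD complex (fold 3.95), and MTA3, a NuRD subunit (fold 3.82), whose peak was not within 1 kb of a RefSeq start. GPS2, a subunit of the NCOR complexes, was the CTR-only gene (fold 3.45), but its peak also lies at an end of EIF5A and not within 1 kb of a GPS2 start. The strongest shared peak was at HDAC2, with a fold of 12.3 in BPP and 10.7 in CTR. NCOR1 had folds of 3.01 in BPP and 3.90 in CTR. HDAC3, TBL1XR1, CTBP1 and HDAC7 had no H3K27ac gene-end peak, and HDAC7 had an IgG one.

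Of 19 other genes for BTB zinc finger proteins, 0 were marked in BPP only, 2 in CTR only and 9 in both. ZBTB2 had a CTR peak of fold 4.70 at its start. ZBTB7B had one of fold 3.16 which was also at an end of DCST2. Of 18 targets of BCL6 known from B cells, 5 were marked in BPP only, 1 in CTR only and 6 in both. BPP-only peaks included those at BCL2, an inhibitor of apoptosis (fold 5.76), BATF, an AP-1 family factor (fold 4.89), and CDKN1A, which encodes the cell cycle inhibitor p21 (fold 4.42). ID2 had a BPP-only peak of fold 3.73 and was named after its value was seen. The peaks of BCL2, BATF, CDKN1A and ID2 were not within 1 kb of a RefSeq start of these genes. PRDM1, the B cell target whose repression BCL6 is best known for, had no gene-end peak in any list, nor had IRF4, CCND2, CD69 or CD80.

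Of 10 regulators of BCL6 or of its protein, 0 were marked in BPP only, 1 in CTR only and 2 in both. FBXO11, which encodes a ubiquitin ligase subunit that degrades BCL6, had a CTR peak of fold 3.99 at its start. STAT3 had overlapping peaks with folds of 4.28 in BPP and 4.17 in CTR, and STAT6 had folds of 4.11 in BPP and 4.48 in CTR. STAT6 also had an IgG peak of fold 5.88 with −log10 q at 4.13, which neither H3K27ac peak overlapped and which lay at an end of NAB2 too. Among the listed genes, ZBTB48 and CXCR4 also had an IgG gene-end peak and were named after their values were seen. The regulators STAT5A, STAT5B, IRF8, MEF2B, FOXO1, FOXO3 and CREBBP had no gene-end peak in any list. They are 70.0% of the 10, against 61.8% of all coding genes with no H3K27ac gene-end peak.

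The label of the cells was set against markers. Of 8 ovarian carcinoma, epithelial and mesenchymal markers, 3 had gene-end peaks in both H3K27ac lists (37.5%, against 23.6% of all coding genes). These were the keratin genes KRT8 and KRT18 and the mesenchymal gene VIM. The KRT8 peaks were at opposite ends of the gene and not within 1 kb of a RefSeq start of KRT8. The CTR peak of KRT8 also lay at an end of KRT18. PAX8, WT1, EPCAM, MUC16 and CDH1 had none in any list (62.5%). This is near the 61.8% of all coding genes with no H3K27ac gene-end peak. None of 5 B cell markers, MS4A1, CD79A and PTPRC among them, had a gene-end peak in any list. Having no H3K27ac gene-end peak is the most common class over all coding genes.

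**Figure D4:**
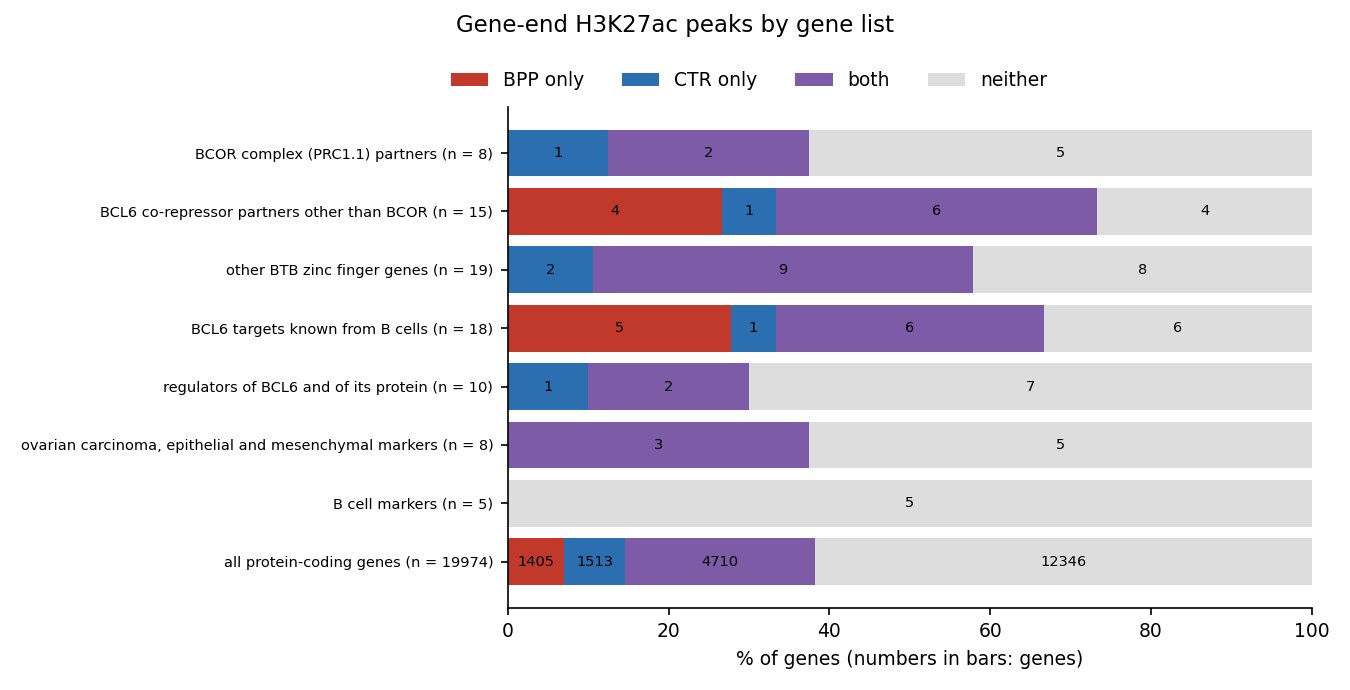
Share of genes (x axis, %) with a gene-end H3K27ac peak in BPP only, CTR only, both or neither, for each gene list and for all protein-coding genes, with gene numbers in the bars. BPP-only genes are found in 2 of the lists, with 4 of 15 co-repressor partners and 5 of 18 targets, against 7.03% of all protein-coding genes. These counts depend on the setting. With transcription starts in place of gene ends, BPP-only genes over all lists fell from 9 to 3 and CTR-only genes from 6 to 4.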

How the data were processed

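H3K27ac CUT&Tag was deposited as 1 peak list for each of the BPP, CTR and IgG libraries, grouped by sample title. The submitters' processing notes name Bowtie2 2.4.1, fastp and deepTools 3.3.0 and the build GRCh38.p13 (hg38). How peaks were called, and whether against IgG, is not given in the sources used here. In the files the authors' fold is a ratio over an undescribed background. The authors deposited a −log10 p-value and a −log10 q-value per peak, none with −log10 p below 5. The authors' score is that −log10 p multiplied by 10 without its decimals. Read numbers are not given in the sources used here and depth is unknown.

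Chromosomes 1 to 22 and X were used. Gene spans came from RefSeq (GRCh38.p14), which has no strand, and starts, strands and sequences from RefSeq promoter windows, which matched 3 of the 4 genes and 15812 of 19974 coding genes. A gene-end peak overlaps, by at least 1 bp, the 1 kb on either side of either end of a span. Ranks are by −log10 q within a list. All 83 genes of 7 lists matched. Named genes are the 4 genes with all their peaks, up to 4 genes per list marked in 1 H3K27ac library by −log10 q, the 5 nearest to BCL6 in CTR fold, and genes at whose ends nearby peaks lie. Other genes over or beside those peaks were named to place them. Some list members, though counted, are not reported here by name. Examples of genes marked in both lists, and the CpG-rich division, were added after the values were seen. The 4 genes and the lists were chosen with earlier results of these data known. With 1 library per group no test was made. Overlap was tested on simulated data against bedtools 2.31.1. Scripts ran in Python 3.11.15 with matplotlib 3.10.9, scipy 1.17.1, pandas 2.3.3 and numpy 2.4.6.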

Additional observations from a re-analysis of the deposited data

How the results depend on the processing

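Under each of the 6 alternatives tried, BCL6 was the only gene assessed with a CTR gene-end peak, and none had a BPP one. The alternatives were windows of 500 bp, windows of 2 kb, transcription starts in place of gene ends, −log10 q of 5 or more, fold of 5 or more and the top 5000 peaks of each list. With transcription starts only 3 of the 4 genes were assessed, because BCL6B has no entry. For the windows of 500 bp and the q, fold and top 5000 filters the outcome was fixed in advance. The BCL6 peak lies 0.026 kb from the gene end, so the narrower window keeps it. It was chosen for its strength and passes the filters. A narrower window or a filter can only remove peaks from the main count. The IgG count was 1 (BCORL1) with windows of 2 kb and 1 with transcription starts. Peaks near the 4 genes fell to 9 BPP, 6 CTR and 0 IgG at −log10 q of 5 or more. They fell to 2 BPP, 3 CTR and 1 IgG at a fold of 5 or more, and to 2 BPP, 4 CTR and 2 IgG among the top 5000. Shared peaks were 1 BPP and 1 CTR with an overlap of 50% of both, at −log10 q of 5 or more and among the top 5000, and 0 and 0 at a fold of 5 or more. They were 3 BPP and 3 CTR with a counterpart within 1 kb, against 2 and 2 in the main count. Among the 83 list genes, BPP-only genes numbered 3 with transcription starts, for which 65 have an entry, 5 at a fold of 5 or more and 4 among the top 5000, against 9 in the main count. CTR-only genes numbered 4, 7 and 9 under the same settings, against 6. At −log10 q of 5 or more, 8 were BPP-only and 9 CTR-only. BPP-only genes were the more numerous in the main count, with windows of 500 bp (9 against 6) and with windows of 2 kb (11 against 6), and not under the other 4 settings. Those marked in both numbered 5 at a fold of 5 or more and 9 among the top 5000, against 28. Fewer peaks enter these filters by construction. A fixed fold or q may treat the lists unequally. No paired analysis was possible because each group has 1 library, and no library could be left out.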
